A study of Mus musculus with 6 samples.

Results

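The 31 genes described here encode the enzymes, carriers and regulators of fatty acid oxidation, and were taken by name from a fixed list. That list was chosen with earlier results of these data known. All 31 were found among the 17464 gene symbols of each library. Of these, 30 had 3 or more libraries with an FPKM of 1 or higher and entered the test, and the remaining member, Ppara, is described by its reads alone. FPKM is the number of sequenced fragments divided by the gene's length in kilobases and by the size of the library. Gene expression was measured by RNA sequencing in mammary gland of C57BL/6 mice of WT genotype at postnatal day 45. In 3 libraries the tissue had been given recombinant mouse CXCL14 protein, a chemokine, and 3 untreated libraries of the same strain, genotype and age served for comparison. Dose, route, duration, vehicle and sex were not stated in the sources used here, and the labels name no separate animals, so p-values here cover only the variation among these libraries, some of which may be technical. The series title speaks of endothelial cells and the labels of mammary gland. In bulk tissue of this kind, fewer cells of a type and less RNA per cell cannot be told apart.

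Fatty acid oxidation shortens acyl chains and passes their electrons to the respiratory chain. Long chains cross the inner mitochondrial membrane as carnitine esters, through the carnitine palmitoyltransferases and a carrier. Inside, an acyl-CoA dehydrogenase, a hydratase, a hydroxyacyl-CoA dehydrogenase and a thiolase act in turn, and electron transfer flavoprotein takes electrons from the first step. Peroxisomes run a related pathway for chains that mitochondria handle poorly. Isomerases and reductases deal with double bonds, and thioesterases release the free acid. PPAR alpha is the receptor best known for switching on this set of genes, above all in liver. In the mammary gland, oxidation takes place in a tissue whose adipocytes store fat and whose secretory epithelium makes it.

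Promoter sequences are shown for members whose window holds the core hexamer of nuclear receptors such as the PPARs, and for a pair of genes that share their promoter. The windows run from 250 bases before to 50 bases after each gene's start, are taken from RefSeq on GRCm38.p6, and are written 5′ to 3′ on the gene's strand. Of the 31 members, 26 had a window. The hexamer AGGTCA, or TGACCT where it lies on the other strand, is in capitals.
Cpt1a: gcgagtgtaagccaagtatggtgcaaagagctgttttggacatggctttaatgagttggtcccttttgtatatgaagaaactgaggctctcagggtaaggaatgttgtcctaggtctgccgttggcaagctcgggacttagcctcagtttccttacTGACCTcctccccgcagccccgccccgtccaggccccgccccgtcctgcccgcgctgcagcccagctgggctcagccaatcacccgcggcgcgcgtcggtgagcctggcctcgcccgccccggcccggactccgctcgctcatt
Acadvl: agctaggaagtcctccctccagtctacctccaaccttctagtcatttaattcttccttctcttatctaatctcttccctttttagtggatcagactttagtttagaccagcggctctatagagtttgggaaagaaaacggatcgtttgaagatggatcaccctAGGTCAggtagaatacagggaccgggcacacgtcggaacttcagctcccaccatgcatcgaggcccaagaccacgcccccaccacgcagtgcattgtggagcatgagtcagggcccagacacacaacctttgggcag
Acadm: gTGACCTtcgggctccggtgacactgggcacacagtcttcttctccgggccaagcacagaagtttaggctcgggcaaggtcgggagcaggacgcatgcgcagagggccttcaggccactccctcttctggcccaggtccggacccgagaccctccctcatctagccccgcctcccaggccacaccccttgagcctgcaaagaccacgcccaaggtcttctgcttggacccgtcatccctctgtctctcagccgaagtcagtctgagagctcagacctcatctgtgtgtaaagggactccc
Echs1: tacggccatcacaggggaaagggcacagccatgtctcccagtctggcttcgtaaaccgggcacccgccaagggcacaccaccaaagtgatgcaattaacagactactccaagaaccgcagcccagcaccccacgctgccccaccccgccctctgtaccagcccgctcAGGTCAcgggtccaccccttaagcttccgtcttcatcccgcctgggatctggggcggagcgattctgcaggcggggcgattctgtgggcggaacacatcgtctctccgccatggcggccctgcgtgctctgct
Hadhb: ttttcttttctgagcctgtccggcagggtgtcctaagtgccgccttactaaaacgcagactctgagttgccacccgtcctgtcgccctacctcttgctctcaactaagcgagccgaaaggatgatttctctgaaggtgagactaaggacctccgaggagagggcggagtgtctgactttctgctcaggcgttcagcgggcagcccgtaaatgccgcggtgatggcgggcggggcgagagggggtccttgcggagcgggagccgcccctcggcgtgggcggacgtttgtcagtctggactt
The windows lie at chr19:3323051-3323350 on the plus strand for Cpt1a, at chr11:70015379-70015678 on the minus strand for Acadvl, at chr3:153944594-153944893 on the minus strand for Acadm, at chr7:140116372-140116671 on the minus strand for Echs1 and at chr5:30155003-30155302 on the plus strand for Hadhb. The hexamer was found on either strand in 4 of the 26 member windows (15.4%) and in 5340 of all 32851 windows (16.3%). The ERR element TCAAGGTCA, which contains the hexamer, was in 0 of the 26 and in 0.423% of all windows, on either strand. The DR1 element, 2 direct copies of the hexamer with 1 base between them, was in 0 of the 26 and in 0.0396% of all windows. A match describes letters only, and the lack of one says only that these letters are not in this window. The Hadhb window shares 228 bases with that of Hadha, which is transcribed the other way from the same stretch, and holds none of the 3 motifs.

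Reads assigned to the listed genes, as recovered from the FPKM steps, lay between 15245981 and 16983352 per library. They are the smallest whole numbers that fit the steps of each gene. The 31 members together took between 15825 and 18169 of these reads, or 0.0966% to 0.118%. CXCL14 replicate 1 lay close to untreated replicate 1. The mean chi-square per gene on the recovered reads, which is 1 under counting noise, was 2.42 for that pair over all genes tested and 2.02 over the members, while for the other 14 pairs it was between 25.7 and 98.8 over all genes, and between 4.87 and 19.5 over the members. For 26 of the 30 tested members this pair differed by no more than counting noise allows at the 95% level, against 7 to 21 members in the other pairs. Whether the labels of these libraries are right cannot be told from the values, and this doubt applies to every value over all 6 libraries. Values without CXCL14 replicate 1 are therefore given beside those of all 6 libraries. Leaving out a treated library that resembles an untreated one widens the difference between the groups by construction, so these values are no independent support. CXCL14 replicate 2 had the lowest level of the 6 libraries in 19 of the 30 members, and untreated replicate 2 the highest in 11. Over all genes tested these libraries also had the lowest and the highest median deviation from a gene's mean, at -0.079 and 0.061 on the log2(FPKM + 1) scale. Over the members the medians were -0.18 and 0.10.

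None of the 30 members tested passed the test between CXCL14 and untreated libraries. Most were slightly lower with CXCL14, the largest difference being that of Acaa1a, the peroxisomal thiolase, with a log2 fold change of -0.36 on the log2(FPKM + 1) scale. The log2 fold change was negative for 27 of the 30 and positive for 3, namely Crat, Hadhb and Ehhadh, beside 62.8% negative among the 11516 genes tested. The median was -0.13 over the members and -0.06 over all genes tested. Limma-trend, a moderated linear model fitted across all genes with Benjamini-Hochberg adjustment, called 0 of the 30 members and 0 of the 11516 genes (0%) at an adjusted p under 0.05. At an unadjusted p under 0.05 it found 0 members and 7.77% of all genes, and voom on the recovered reads also called 0 members and 0 genes. Adjusted p-values of the members lay between 0.573 and 0.986. The 95% intervals reached down to -0.75 and up to 0.57 over the members, with a median distance of 0.32 from the estimate to its bound. Both extremes belonged to Acot1, and the narrowest interval, that of Hadha, ran from -0.29 to 0.12.

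**Figure D1:**
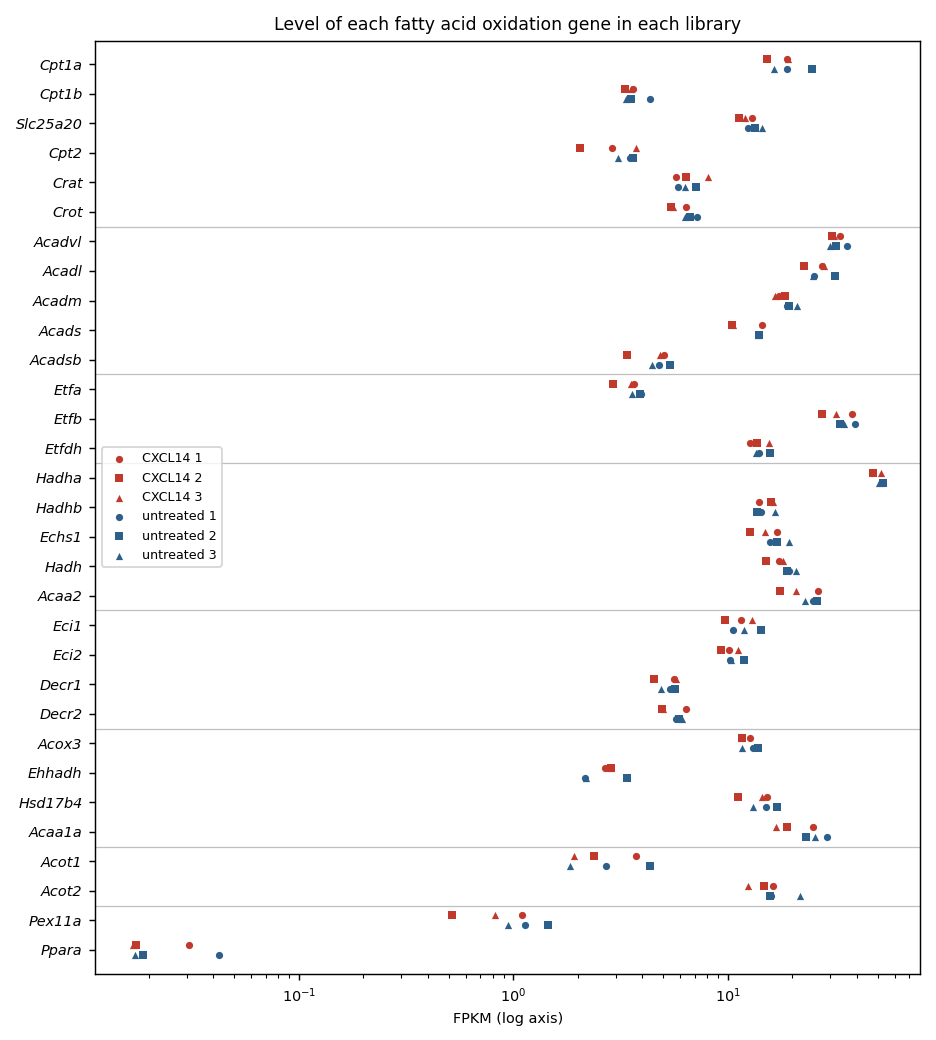
FPKM of each of the 31 genes in each library, on a log axis, with CXCL14 libraries in red above untreated libraries in blue and marker shapes for replicates 1 to 3. Grey lines separate the roles, from the carnitine shuttle at the top to Pex11a and Ppara at the bottom, and the red and blue points of most genes interleave.

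Without CXCL14 replicate 1 the members again held 0 calls. Limma-trend then called 5.18% of all genes, 2.16% higher and 3.02% lower, and none of the 30 members. The smallest adjusted p of a member was that of Acads, at 0.0559. An unadjusted p under 0.05 was reached by 5 of the 30 members, namely Crot, Acads, Echs1, Acaa2 and Acaa1a, all lower with CXCL14, beside 29.3% of all genes. Negative log2 fold changes were found for 26 of the 30, beside 63.3% of all genes, with medians of -0.19 over the members and -0.10 over all genes. Without both libraries numbered 1, the calls were 0 of 30 members and 0.130% of all genes, with 26 of 30 members and 63.4% of all genes negative and medians of -0.20 and -0.10.

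The direction of the smaller differences depended on the scaling between libraries. Scaling by median ratios moved the median of all genes to 0.01 with all 6 libraries, where 23 of the 30 members and 48.3% of all genes were negative. Without CXCL14 replicate 1 the same scaling moved the median of all genes from -0.10 to 0.00, and left 19 of 30 members and 49.3% of all genes negative. Member medians were then -0.06 with all 6 libraries and -0.09 without CXCL14 replicate 1. Fold changes below are given before this scaling unless stated, and the shift differed by fit and by gene. With all 6 libraries it took Hadha from -0.087 to -0.0043 and Pex11a, a gene of low FPKM, from -0.27 to -0.23. CXCL14 replicate 2 carried much of the median: without it the members stood at -0.05 beside -0.04 over all genes, with 23 of 30 negative. That omission gives more weight to CXCL14 replicate 1, which lay close to an untreated library. Without untreated replicate 2 the members stood at -0.09 beside -0.05 over all genes, with 22 of 30 negative.

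Complete separation of the 3 CXCL14 from the 3 untreated libraries was found for 2 of the 30 members, Acadm and Hadh, both lower, beside 8.36% of all genes lower and 4.74% higher. Without CXCL14 replicate 1 there were 14 members lower and 0 higher, beside 34.9% of all genes lower and 13.4% higher. These were Slc25a20, Crot, Acadm, Acads, Etfa, Etfb, Echs1, Hadh, Acaa2, Decr2, Acox3, Acaa1a, Acot2 and Pex11a. Without both libraries numbered 1 there were also 14 lower, the same genes, beside 37.1% of all genes.

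**Figure D2:**
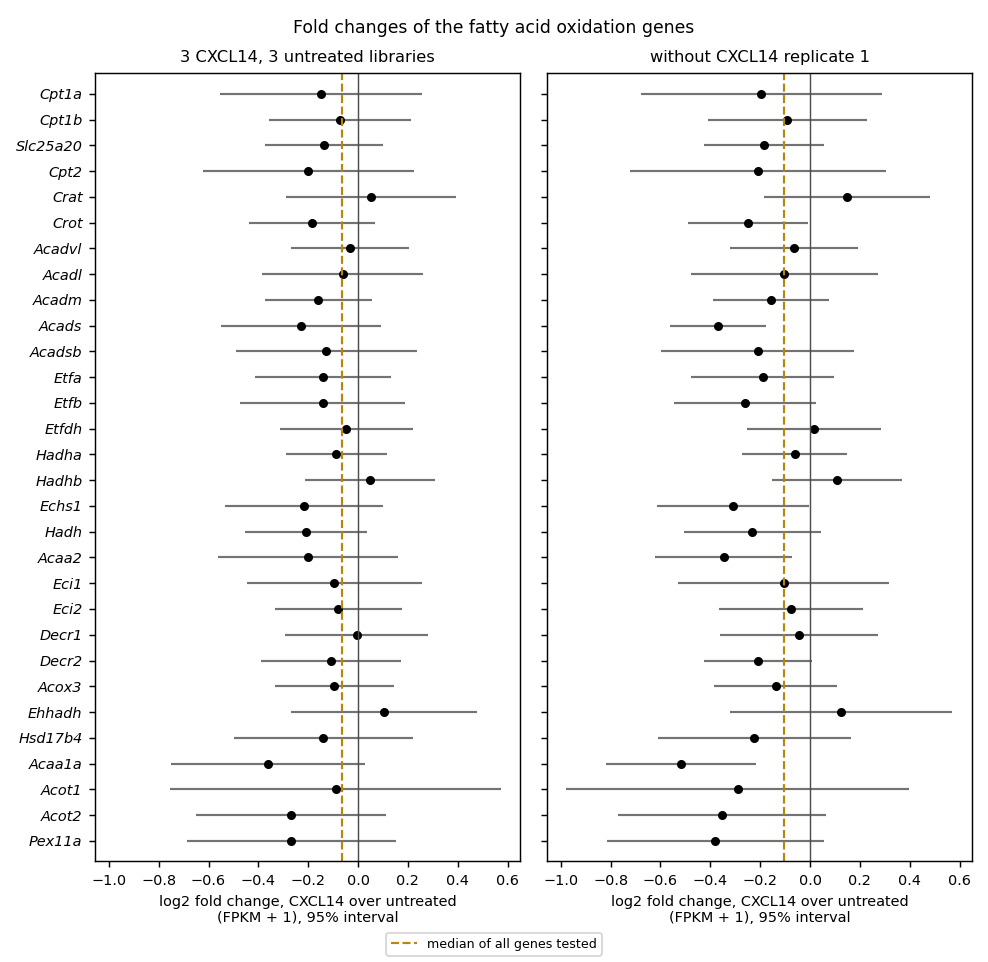
Log2 fold change of CXCL14 over untreated for the 30 tested members, as points with 95% intervals from limma-trend, with all 6 libraries on the left and without CXCL14 replicate 1 on the right. The dashed line is the median of all genes tested, at -0.06 on the left and -0.10 on the right, and the interval of every member on the left crosses 0.

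Of the 6 members of the carnitine shuttle 0 passed the test, with a median log2 fold change of -0.14. Cpt1a, the liver-type carnitine palmitoyltransferase of the outer mitochondrial membrane and the rate-limiting step of entry, measured 18.9, 15.3 and 19.1 FPKM in CXCL14 replicates 1, 2 and 3, and 18.9, 24.8 and 16.3 FPKM in untreated replicates 1, 2 and 3. Untreated replicate 2 was the highest library and CXCL14 replicate 2 the lowest, and the groups overlapped. Between the groups the log2 fold change was -0.15 (adjusted p = 0.736 by limma-trend, SE 0.17), and -0.20 (SE 0.19) without CXCL14 replicate 1. Cpt1b, the muscle-type isoform, was lower in level throughout, at 3.62, 3.33 and 3.55 FPKM in the CXCL14 libraries and 4.35, 3.53 and 3.37 FPKM in the untreated ones. On the log2 scale Cpt1b differed by -0.07 (SE 0.12). Between 157 and 200 reads per library stood behind Cpt1b, against 1269 to 1919 for Cpt1a.

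Cpt2, which turns the carnitine ester back into acyl-CoA inside the mitochondrion, was at 2.87, 2.04 and 3.73 FPKM in the CXCL14 libraries and at 3.48, 3.60 and 3.08 FPKM in the untreated ones. CXCL14 replicates 2 and 3 held the lowest and the highest value of all 6 libraries. Slc25a20, the carnitine-acylcarnitine carrier of the inner membrane, averaged 12.1 ± 0.832 FPKM with CXCL14 and 13.4 ± 0.976 FPKM untreated (SD, n = 3 each), which came to -0.14 on the log2 scale (adjusted p = 0.623 by limma-trend, SE 0.10). Crat, which moves acetyl and short acyl groups onto carnitine, differed by 0.05 on the log2 scale (SE 0.14), with 8.07 FPKM in CXCL14 replicate 3 as its highest level. Crot, the peroxisomal octanoyltransferase, measured 6.38, 5.44 and 5.53 FPKM in the CXCL14 libraries and 7.22, 6.63 and 6.29 FPKM in the untreated ones. CXCL14 replicates 2 and 3 lay below all untreated libraries and CXCL14 replicate 1 lay among them. Its log2 fold change was -0.19 (adjusted p = 0.581 by limma-trend, SE 0.11), and -0.25 (adjusted p = 0.161 by limma-trend, SE 0.10) without CXCL14 replicate 1.

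All 5 mitochondrial acyl-CoA dehydrogenases, which take very long, long, medium, short and short branched chains, had negative log2 fold changes, and 0 of the 5 passed. With median-ratio scaling Acadvl and Acadl turned to 0.05 and 0.02. Acads, the short-chain enzyme, stood out for its even level in the untreated libraries. It measured 14.5, 10.5 and 10.6 FPKM in CXCL14 replicates 1, 2 and 3, and 14.0, 14.0 and 13.9 FPKM in untreated replicates 1, 2 and 3. CXCL14 replicate 1 was the highest of all 6 libraries, and the other CXCL14 libraries were the lowest. For Acads the log2 fold change was -0.23 (adjusted p = 0.587 by limma-trend, SE 0.13), and -0.37 (adjusted p = 0.0559 by limma-trend, SE 0.08) without CXCL14 replicate 1. Without that library the adjusted p was 0.0795 by voom, and 0.132 by limma-trend with median-ratio scaling. The even untreated levels rest on 416, 401 and 433 reads. Acadm, the medium-chain enzyme, was lower in all 3 CXCL14 libraries, with 17.4, 18.5 and 16.7 FPKM against 18.9, 19.3 and 20.9 FPKM in untreated libraries. The gap between the groups was narrow, and the log2 fold change was -0.16 (adjusted p = 0.581 by limma-trend, SE 0.09).

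Acadvl, the very-long-chain enzyme of the inner membrane, averaged 31.7 ± 1.32 FPKM with CXCL14 and 32.5 ± 3.04 FPKM untreated (SD, n = 3 each). Acadl, the long-chain enzyme, averaged 26.0 ± 2.99 FPKM with CXCL14 and 27.3 ± 3.81 FPKM untreated (SD, n = 3 each). Both differences were smaller than either group's SD. Acadsb, which acts on short branched chains from isoleucine, was at 5.03, 3.40 and 4.84 FPKM in the CXCL14 libraries and at 4.79, 5.39 and 4.45 FPKM in the untreated ones. CXCL14 replicate 2 alone lay below the untreated libraries.

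Electron transfer flavoprotein is built from the products of Etfa and Etfb, and Etfdh passes its electrons to ubiquinone. Etfa measured 3.67, 2.92 and 3.53 FPKM in the CXCL14 libraries and 3.94, 3.89 and 3.59 FPKM in the untreated ones, a log2 fold change of -0.14 (SE 0.12). Etfb measured 38.1, 27.4 and 31.9 FPKM in the CXCL14 libraries and 39.0, 33.2 and 34.8 FPKM in the untreated ones, with a log2 fold change of -0.14 (SE 0.14). Without CXCL14 replicate 2 these values were -0.064 for Etfa and -0.030 for Etfb. In both genes CXCL14 replicate 2 was the lowest library, and CXCL14 replicate 1 lay within the untreated range. Etfdh averaged 14.0 ± 1.50 FPKM with CXCL14 and 14.4 ± 1.19 FPKM untreated (SD, n = 3 each). Its log2 fold change was -0.05 with all libraries, 0.02 without CXCL14 replicate 1 and 0.03 with median-ratio scaling.

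The deposited levels put Etfa about an order of magnitude below its partner, and the gene length behind the FPKM differed most from the annotation for this gene. Dividing reads by FPKM gives a length of 9754 bases for Etfa, against 1392 bases for its longest transcript in GENCODE M21, a ratio of 7.01. These lengths assume that the recovered reads are the total by which FPKM was scaled. For Etfb the lengths were 910 and 893 bases. Mean FPKM over the 6 libraries was 3.59 for Etfa and 34.1 for Etfb as deposited, and would be 25.2 and 34.7 with the longest GENCODE transcripts. The length lay within 10% of the longest transcript for 17 of the 31 members, below that band for 8 and above it for 6. Ppara came next after Etfa, with 10508 against 3413 bases. At the other end stood Echs1, at 1513 against 4088 bases, where the longest transcript need not be the main one. The length is the same in every library, but a longer one lowers FPKM and so shrinks a fold change on the log2(FPKM + 1) scale, which for Etfa was -0.14 with a pseudocount of 1 and -0.18 with 0.1.

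**Figure D3:**
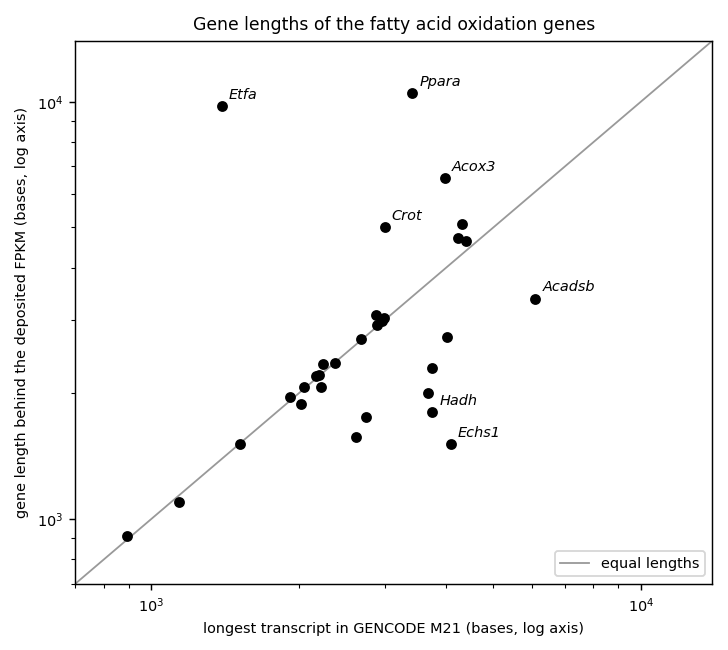
Gene length behind the deposited FPKM against the longest GENCODE M21 transcript, in bases on log axes, one point per member, with a line of equal lengths. Etfa stands at 9754 against 1392 bases, farthest from the line, and 17 of the 31 genes lie within 10% of it.

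Hadha and Hadhb, the alpha and beta subunits of the mitochondrial trifunctional protein, carry out the last 3 steps of the cycle for long chains and share the promoter shown above. In FPKM as deposited Hadha had the highest level of all members, at 47.1, 47.7 and 51.9 FPKM in the CXCL14 libraries and 52.8, 52.7 and 50.4 FPKM in the untreated ones. Hadhb was at 14.0, 15.8 and 16.2 FPKM in the CXCL14 libraries and at 14.3, 13.7 and 16.5 FPKM in the untreated ones. The log2 fold changes were -0.09 (SE 0.08) for Hadha and 0.05 (SE 0.11) for Hadhb, and in neither gene were the groups apart. With the longest GENCODE transcripts the mean over the 6 libraries would be 34.4 FPKM for Hadha and 34.7 FPKM for Etfb. Hadha varied least of the 31 members over the 6 libraries, with a ratio of highest to lowest FPKM of 1.12.

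Echs1, Hadh and Acaa2 serve the shorter chains, as hydratase, hydroxyacyl-CoA dehydrogenase and thiolase, and all had negative log2 fold changes under every scaling. Hadh was lower in all 3 CXCL14 libraries, at 17.4, 15.0 and 18.2 FPKM against 19.2, 18.8 and 20.8 FPKM in untreated libraries. The difference was a log2 fold change of -0.21 (adjusted p = 0.573 by limma-trend, SE 0.10). Echs1 measured 16.9, 12.6 and 14.8 FPKM in the CXCL14 libraries and 15.7, 16.9 and 19.2 FPKM in the untreated ones. Its log2 fold change was -0.22 (SE 0.13), and -0.31 (adjusted p = 0.167 by limma-trend, SE 0.12) without CXCL14 replicate 1. Acaa2 stood at 26.3, 17.6 and 20.9 FPKM in the CXCL14 libraries and at 24.9, 26.1 and 23.0 FPKM in the untreated ones. As in Acads, CXCL14 replicate 1 was the highest library and the other CXCL14 libraries the lowest. The log2 fold change of Acaa2 was -0.20 (SE 0.15), and -0.35 (adjusted p = 0.114 by limma-trend, SE 0.11) without CXCL14 replicate 1. Without CXCL14 replicate 2 the values shrank to -0.068 for Acaa2, -0.11 for Echs1 and -0.13 for Hadh.

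The enzymes for unsaturated chains showed the smallest differences, with a median log2 fold change of -0.09 over the 4 genes. Eci1 and Eci2, which shift double bonds, averaged 11.4 ± 1.65 and 10.2 ± 0.897 FPKM with CXCL14, and 12.3 ± 1.85 and 10.8 ± 0.897 FPKM untreated (SD, n = 3 each). Decr1, the mitochondrial dienoyl-CoA reductase, averaged 5.29 ± 0.671 FPKM with CXCL14 and 5.30 ± 0.386 FPKM untreated (SD, n = 3 each), with a log2 fold change of -0.01 and a 95% interval from -0.29 to 0.28. Decr2, its peroxisomal counterpart, was at 6.38, 4.96 and 5.01 FPKM in the CXCL14 libraries and at 5.76, 5.90 and 6.09 FPKM in the untreated ones. CXCL14 replicate 1 again lay above the untreated libraries, with CXCL14 replicates 2 and 3 below them. The log2 fold change of Decr2 was -0.11 (SE 0.12), and -0.21 (adjusted p = 0.183 by limma-trend, SE 0.09) without CXCL14 replicate 1 and -0.054 without CXCL14 replicate 2.

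Among the peroxisomal enzymes Acaa1a, the thiolase of the straight-chain pathway, showed the largest difference of all members on the log2(FPKM + 1) scale, while with voom on the recovered reads that of Pex11a was larger. It measured 25.0, 18.8 and 16.8 FPKM in the CXCL14 libraries and 29.0, 23.2 and 25.6 FPKM in the untreated ones. CXCL14 replicates 2 and 3 lay below every untreated library and CXCL14 replicate 1 among them. Its log2 fold change was -0.36 (adjusted p = 0.573 by limma-trend, SE 0.16), with a 95% interval from -0.75 to 0.03, and -0.52 (adjusted p = 0.0669 by limma-trend, SE 0.12) without CXCL14 replicate 1. Acaa1a has a close paralog, Acaa1b, and how reads shared between them were counted is not stated. Hsd17b4, the multifunctional enzyme of very-long and branched chains, averaged 13.6 ± 2.19 FPKM with CXCL14 and 15.1 ± 1.97 FPKM untreated (SD, n = 3 each). Ehhadh, the multifunctional enzyme of the PPAR-responsive peroxisomal pathway in liver, was at 2.69, 2.84 and 2.85 FPKM in the CXCL14 libraries, which was within the untreated range of 2.15, 3.38 and 2.19 FPKM. For Ehhadh limma-trend gave 0.10 on the log2 scale (SE 0.16). Acox3, an oxidase of branched chains, averaged 11.9 ± 0.670 FPKM with CXCL14 and 12.8 ± 1.08 FPKM untreated (SD, n = 3 each).

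The thioesterases Acot1, cytosolic, and Acot2, mitochondrial, are close paralogs that lie on the same chromosome, so reads they share make their levels uncertain. Acot1 had the widest spread of the tested members beside Pex11a, at 3.75, 2.37 and 1.91 FPKM in the CXCL14 libraries and at 2.71, 4.34 and 1.84 FPKM in the untreated ones, with 48 to 104 reads per library. Acot2 measured 16.3, 14.7 and 12.4 FPKM in the CXCL14 libraries and 15.9, 15.7 and 21.6 FPKM in the untreated ones. Untreated replicate 3 was the highest library for Acot2 and the lowest for Acot1. Log2 fold changes were -0.09 (SE 0.28) for Acot1 and -0.27 (SE 0.16) for Acot2.

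Pex11a, which drives peroxisome division and is a PPAR alpha target in liver, was near the limit of the test at 1.10, 0.519 and 0.825 FPKM in the CXCL14 libraries and 1.13, 1.45 and 0.947 FPKM in the untreated ones. Those levels rest on 20 to 52 reads. Limma-trend gave a log2 fold change of -0.27 (adjusted p = 0.607, SE 0.18) on the log2(FPKM + 1) scale, which understates changes at such levels, and voom on the recovered reads gave -0.56 (adjusted p = 0.577, SE 0.35). Pex11a passed the filter in exactly 3 libraries. Ppara itself was barely detected, with 5, 3 and 3 reads in CXCL14 replicates 1, 2 and 3 and 7, 3 and 3 reads in untreated replicates 1, 2 and 3. At this depth a small or moderate difference in Ppara could not be detected.

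**Figure D4:**
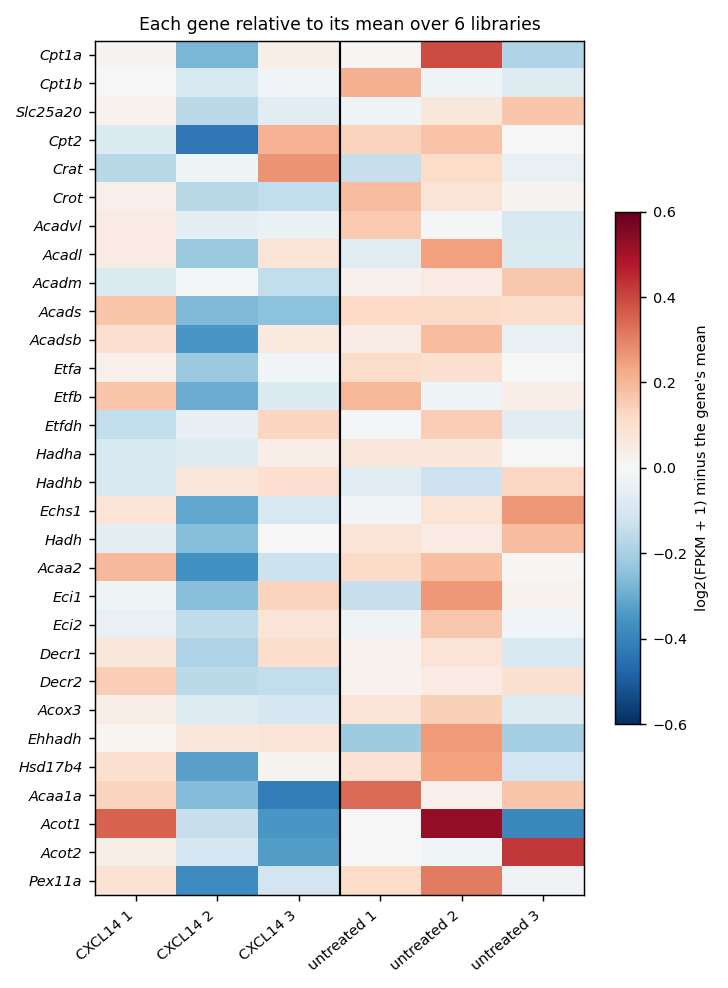
Log2(FPKM + 1) of each tested member minus its mean over the 6 libraries, with CXCL14 libraries left of the black line and untreated libraries right of it. The column of CXCL14 replicate 2 is the bluest, with the lowest level in 19 of the 30 genes, and CXCL14 replicate 1 resembles untreated replicate 1. CXCL14 replicate 2 also had the lowest median deviation over all genes tested, at -0.079.

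The median coefficient of variation over the 30 members was 12.5% in the CXCL14 libraries and 8.88% in the untreated ones, beside 14.3% and 11.1% over all genes tested. Between CXCL14 replicates 2 and 3 alone it was 11.7% for the members and 8.85% for all genes. Summed over the 31 members, the level was 435, 373 and 412 FPKM in CXCL14 replicates 1, 2 and 3, and 446, 459 and 436 FPKM in untreated replicates 1, 2 and 3. The ratio of this sum to that of 18 tricarboxylic acid cycle enzymes was 0.573, 0.569 and 0.602 in the CXCL14 libraries and 0.567, 0.593 and 0.552 in the untreated ones.

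Of 102 further genes of fatty acid uptake, oxidation, PPAR signalling, thioesterases, peroxisomes and the tricarboxylic acid cycle, 83 were tested and 0 passed in either direction with all 6 libraries. Without CXCL14 replicate 1, 1 rose and 2 fell of the 83, beside 5.18% of all genes called in that fit, and without both libraries numbered 1 there were 0 calls among them. Pdk4, a kinase that shuts off pyruvate dehydrogenase and a PPAR target, measured 2.03, 6.90 and 10.1 FPKM in the CXCL14 libraries and 1.84, 2.81 and 1.51 FPKM in the untreated ones. CXCL14 replicates 2 and 3 were above all others, and the log2 fold change was 1.10 over all libraries (adjusted p = 0.573 by limma-trend, SE 0.46) and 1.64 (adjusted p = 0.0338 by limma-trend, SE 0.23) without CXCL14 replicate 1. Idh2, a mitochondrial isocitrate dehydrogenase, and Sdha, the flavoprotein subunit of succinate dehydrogenase, fell in that fit by 0.48 and 0.50 on the log2 scale (limma-trend adjusted p = 0.0439 for each). With median-ratio scaling, also without CXCL14 replicate 1, neither Idh2 nor Sdha passed (limma-trend adjusted p = 0.0764 and 0.0874). With voom on the recovered reads of the same libraries both passed (voom adjusted p = 0.0443 and 0.0461). Pdk4 passed in both of these fits (adjusted p = 0.0269 by limma-trend with median-ratio scaling and 0.0392 by voom).

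Of 21 other oxidation enzymes and transporters tested, 15 had negative log2 fold changes, with a median of -0.11, beside 62.8% negative and a median of -0.06 over all genes. Over all 83 genes the median was -0.10, and -0.026 with median-ratio scaling. Among the 21 enzymes and transporters the smallest p by limma-trend belonged to Acat1, the mitochondrial acetoacetyl-CoA thiolase, with a log2 fold change of -0.26. Phyh and Scp2 followed with -0.34 and -0.20. The 11 PPAR receptors, coactivators and targets tested had a median of -0.10. Of the 18 tricarboxylic acid cycle genes 16 were negative, with a median of -0.18. Medians were -0.11 over 15 peroxisome biogenesis genes, where catalase (Cat) had the smallest p and a log2 fold change of -0.45, and -0.08 over 6 other thioesterases. Uptake and activation genes, 12 tested, had a median of 0.06, with Acsl3 at 0.39 and Acsl5 at -0.19, both acyl-CoA synthetases. Ppard, at 8.65 ± 0.892 FPKM with CXCL14 and 9.31 ± 0.584 FPKM untreated (SD, n = 3 each), was the PPAR receptor with the least spread, while Pparg ranged from 6.80 to 21.4 FPKM in CXCL14 libraries and from 6.50 to 14.1 FPKM in untreated ones. Ppargc1a, the PGC-1 alpha coactivator, was at most 0.0808 FPKM.

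Markers of several cell types differed between the libraries by more than the members did. White adipocyte markers, all 15 of 15 present, summed to 1064, 1965 and 3256 FPKM in CXCL14 replicates 1, 2 and 3, and to 991, 1912 and 2037 FPKM in untreated replicates 1, 2 and 3. Skeletal muscle markers, 12 of 12 present, summed to between 11.5 and 45.9 FPKM in CXCL14 libraries and between 23.7 and 50.7 FPKM in untreated ones, with CXCL14 replicates 2 and 3 the lowest. Brown adipocyte markers, 8 of 8 present, summed to no more than 4.80 FPKM in the CXCL14 libraries and 3.68 FPKM in the untreated ones. Macrophage markers, 10 of 10 present, summed to 590, 90.2 and 146 FPKM in the CXCL14 libraries and 592, 445 and 193 FPKM in the untreated ones. T-cell markers, 10 of 10 present, summed to 965, 614 and 511 FPKM in the CXCL14 libraries and 1052, 823 and 1062 FPKM in the untreated ones. The sums of macrophage, muscle and T-cell markers were lowest in CXCL14 replicates 2 and 3, and those of milk and neutrophil markers highest. In these libraries 14 members lay below the untreated range, beside 34.9% of all genes. Milk and secretory markers, 10 of 10 present, summed to 38.4, 536 and 794 FPKM with CXCL14 and to between 29.0 and 53.0 FPKM untreated, and neutrophil markers, 10 of 10 present, to 38.7, 282 and 384 FPKM with CXCL14 and to between 10.5 and 45.6 FPKM untreated. No marker was at 0 in every library. The part of these cell types in the members' differences was not tested. B-cell markers, 10 of 10 present, summed to between 5416 and 5988 FPKM with CXCL14 and between 5517 and 6173 FPKM untreated. This was the largest of the cell-type sums in every library, and which cells the members' reads came from was not tested. Blood endothelial markers, 10 of 10 present, summed to between 514 and 1488 FPKM with CXCL14 and between 494 and 1006 FPKM untreated. Luminal and basal epithelial markers, 10 of 10 present, summed to between 219 and 283 FPKM with CXCL14 and between 107 and 331 FPKM untreated.

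**Figure D5:**
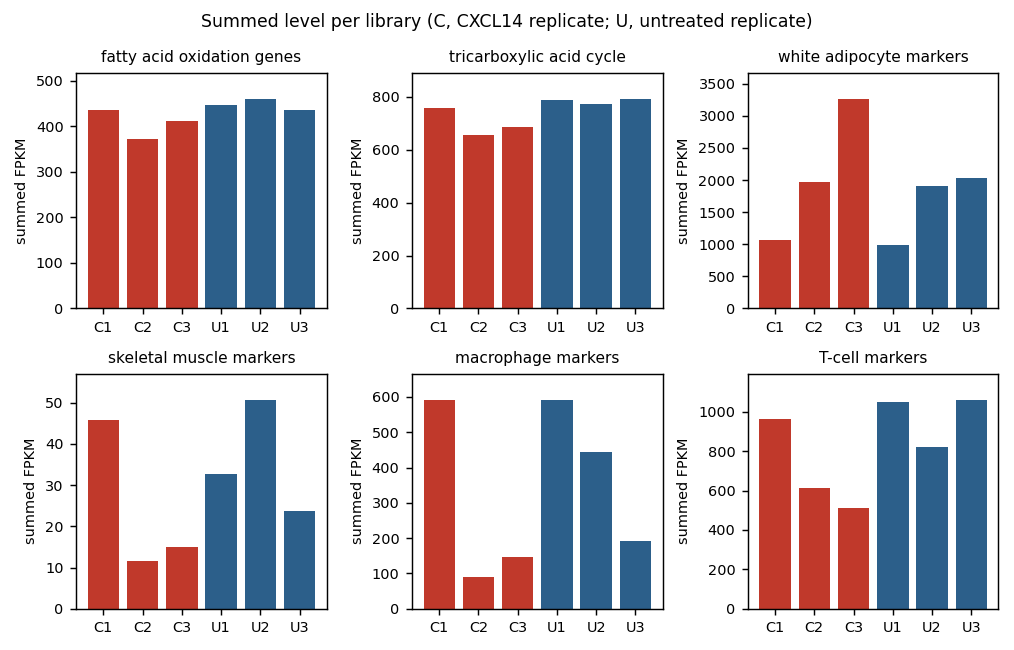
Summed FPKM per library of the 31 members, the tricarboxylic acid cycle genes and 4 cell-type marker lists, with bars from 0, CXCL14 replicates in red and untreated replicates in blue. The members' sum lies between 373 and 459 FPKM, while the white adipocyte sum spans 991 to 3256 FPKM.

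Overlapping genes limit a few of the values. Crat, Etfb, Etfdh, Echs1 and Pex11a overlap another protein-coding gene in RefSeq on GRCm38.p6, namely Dolpp1, Cldnd2, Ppid, Paox and Wdr93 in this order. Since the use of strand in counting is not stated, reads of such neighbours cannot be told apart.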

How the data were processed

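The authors deposited 1 FPKM value per gene symbol and library, per the file headers, for 17464 symbols in 3 CXCL14 and 3 untreated libraries. Bowtie2 2.2.3, HISAT2 2, HTSeq 0.6.0 and the build mm8 are named, per the submitters' processing notes, with no role or order. The sources used here do not give annotation, gene lengths or strand use. Libraries were made from 2 µg of RNA, per the labels' protocols.

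FPKM keeps no depth by itself, but within a gene the values were whole multiples of a step per library. This gave whole reads for all 17464 genes within 0.004 reads, in each gene up to a factor common to its libraries. These reads served for read totals, library comparison and 1 alternative test.

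Genes with 3 or more libraries at an FPKM of 1 or higher were tested on log2(FPKM + 1) with limma-trend (limma 3.58.1, R 4.3.3), adjusted by Benjamini-Hochberg over all 11516 genes tested and called at an adjusted p under 0.05. The pseudocount understates changes of low genes. SDs are over libraries and SEs are moderated. The code was tested on simulated data. Alternatives were no filter, a pseudocount of 0.1, median-ratio scaling, voom on the recovered reads, the replicate number as a block, each library left out, and both libraries numbered 1 left out. Combining the omission of CXCL14 replicate 1 with scaling or voom was added later.

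The members, the gene lists and the tests were chosen with earlier results of these data known. All members are accounted for. Of each other list, up to 3 genes with the smallest p, any called gene, Ppard, Pparg and Ppargc1a could be named, and 1 gene is not reported here. Lengths came from GENCODE M21 (exons summed per transcript), promoters and overlaps from RefSeq GRCm38.p6. Because that build is not mm8, no coordinates of the deposited values are given.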

Additional observations from a re-analysis of the deposited data

How the results depend on the processing

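Of 420 values, 30 members under 14 alternatives, 388 kept their direction and 32 turned, in 13 members, and the smallest adjusted p of a member was 0.0559. Dropping the filter or adding the replicate block cannot change a member's log2 fold change in this balanced design. The values of these alternatives therefore kept their direction by construction. Leaving out 1 library gave between 0 and 597 called genes, 0 members, between 0 and 3 other pathway genes and member medians between -0.19 and -0.05. The 597 and the 3 came without CXCL14 replicate 1, where median-ratio scaling gave 443 genes and 2 pathway genes, and voom 419 genes, 3 pathway genes and a member median of -0.22. Without both libraries numbered 1 there were 15 called genes. With median-ratio scaling the log2 fold change turned to 0.051 for Acadvl, 0.019 for Acadl, 0.032 for Etfdh and 0.064 for Decr1. With that scaling and without CXCL14 replicate 1 it was 0.0060 for Cpt1b, 0.057 for Acadvl, 0.017 for Acadl, 0.13 for Etfdh, 0.061 for Hadha, 0.0089 for Eci1, 0.037 for Eci2 and 0.061 for Decr1. Voom without CXCL14 replicate 1 gave 0.020 for Etfdh, and leaving out both libraries numbered 1 gave 0.0066 for Acadvl. Over single omissions the range was -0.28 to 0.0090 for Cpt1a, -0.13 to 0.016 for Cpt1b, -0.070 to 0.15 for Crat, -0.088 to 0.040 for Acadvl, -0.12 to 0.046 for Acadl, -0.21 to 0.016 for Acadsb, -0.12 to 0.016 for Etfdh, -0.0045 to 0.12 for Hadhb, -0.19 to 0.010 for Eci1, -0.061 to 0.085 for Decr1 and -0.31 to 0.15 for Acot1. The cause was not tested.

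The replicate block left 0 genes, 0 members and 0 other pathway genes called. The member median stayed at -0.13, which the block cannot move. Deviations from the group means correlated at 0.69, -0.30 and 0.06 between libraries numbered 1, 2 and 3, and CXCL14 replicates 2 and 3 correlated best with untreated replicates 3 and 2 (0.60 and 0.56). By these correlations the numbers did not pair the groups throughout, although the libraries numbered 1 stood close together. Deviations sum to 0 within each group, so the correlations depend on each other. Whether the libraries were paired by design cannot be told from them. Depth limits Ppara and Pex11a.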
